A study of Arabidopsis thaliana with 10 samples.

Results

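A set of 79 probe sets, which measure 78 genes of Arabidopsis thaliana, had lower signals at 4 h than at 0 h and at 24 h, with dexamethasone and with DMSO alike. They were taken from 13513 probe sets that the platform annotation ties to a single gene, out of 22746 on the ATH1 array without its control probe sets. A probe set was a member if its highest signal on the 4 arrays at 4 h lay below its lowest signal on the 6 arrays at 0 h and 24 h. The mean of the 6 arrays also had to be at least 1.6 times the mean of the 4, and above 40. LHCB4.2 and plastid-encoded genes were to be left out, but 0 of them met the criteria. The members were therefore chosen by their raw signals at 4 h against those at 0 h and 24 h, and that difference is given as a description with no test.

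The samples were whole seedlings of the Col-0 background with transposon insertions in both GLK1 and GLK2, genes of transcription factors that promote chloroplast development, and all groups shared these insertions. After 10 days on plates about 100 seedlings were moved to a flask of liquid medium with 20 ug/ml hygromycin B and 1.5% sucrose, under 16 h of light and 8 h of dark at 20 C, for 48 h before harvest. The 5 groups of 2 arrays were DMSO solvent control at 0 h, dexamethasone at 4 h, DMSO at 4 h, dexamethasone at 24 h and DMSO at 24 h. Dexamethasone, a steroid, commonly serves to induce a transgene in plants, and the title names targets of AtGLK1 as the subject, but the labels used here name no transgene. The 2 arrays of a group are not stated to come from separate flasks, so the spread behind each p-value may be only technical. The 0 h and 24 h samples share a time of day that the 4 h samples do not, and the hour of the day cannot be told apart from the time since treatment began.

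Many plant transcripts rise and fall once a day, driven by the circadian clock, by light and by the sugar that photosynthesis supplies. Genes that act in growth of the cell wall, in nutrient transport and in the chloroplast are among those with such daily rhythms. A transcript that is low at one time of day and back at its earlier level a full day later is a common form of this behaviour. Whether the members have a daily rhythm was not tested. Levels in whole seedlings are averages over leaf, stem and root, so fewer cells of a type and less RNA per cell cannot be told apart.

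Signals are MAS5 intensities on a linear scale, and each array had been scaled to the same trimmed mean. Median signals over all probe sets ran from 33.9 to 35.9 across the 10 arrays. Leaf and root transcripts were both present: LHCB4.1, an antenna protein of photosystem II, had signals of 2649 to 4204, and the root hair expansin EXPA7 had 32.1 to 57.2. Replicate 2 of dexamethasone at 4 h and replicate 1 of DMSO at 24 h stood apart. On them the summed signal of the 4 defence transcripts with a single-gene probe set, of 16 listed, was 10200 and 7107. It was 569 to 1314 on the other 8 arrays. AT4G12490, AT4G12500 and AT2G43620 carried these sums, while PDF1.2, the other one measured, had 361 and 208 there and 244 to 482 on the other arrays. Of 9 root markers listed, 2 had a single-gene probe set, EXPA7 and EXPA18. Their summed signal was 96.8 and 80.9 on those arrays, below the 105 to 141 on the others. EXPA18 set those arrays apart, with 62.9 and 48.6 against 71.6 to 87.8. EXPA7 did not, with 33.9 and 32.3 against 32.1 to 57.2.

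Over the 79 members the ratio of the mean of the 6 arrays to the mean of the 4 arrays at 4 h had a median of 1.85 and reached 3.77. It was at least 2 in 28 probe sets and at least 3 in 5. Mean signals at 4 h ran from 11.55 to 366 with a median of 61.45, against 41.3 to 654 with a median of 119 on the other arrays. The members were thus spread from weak to fairly strong transcripts, with 25 above 200 at 0 h and 24 h and 11 under 60. The lowest of the 6 arrays exceeded the highest of the 4 by a median of 1.32-fold. That gap was at least 1.5-fold in 17 probe sets and under 1.1-fold in 7. On the 4 h arrays 5 members fell below percentile 40 of an array, a range of weak signals, and AT5G02180 did so on all 4. The share of single-gene probe sets that the rule selected was 0.585%.

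**Figure D1:**
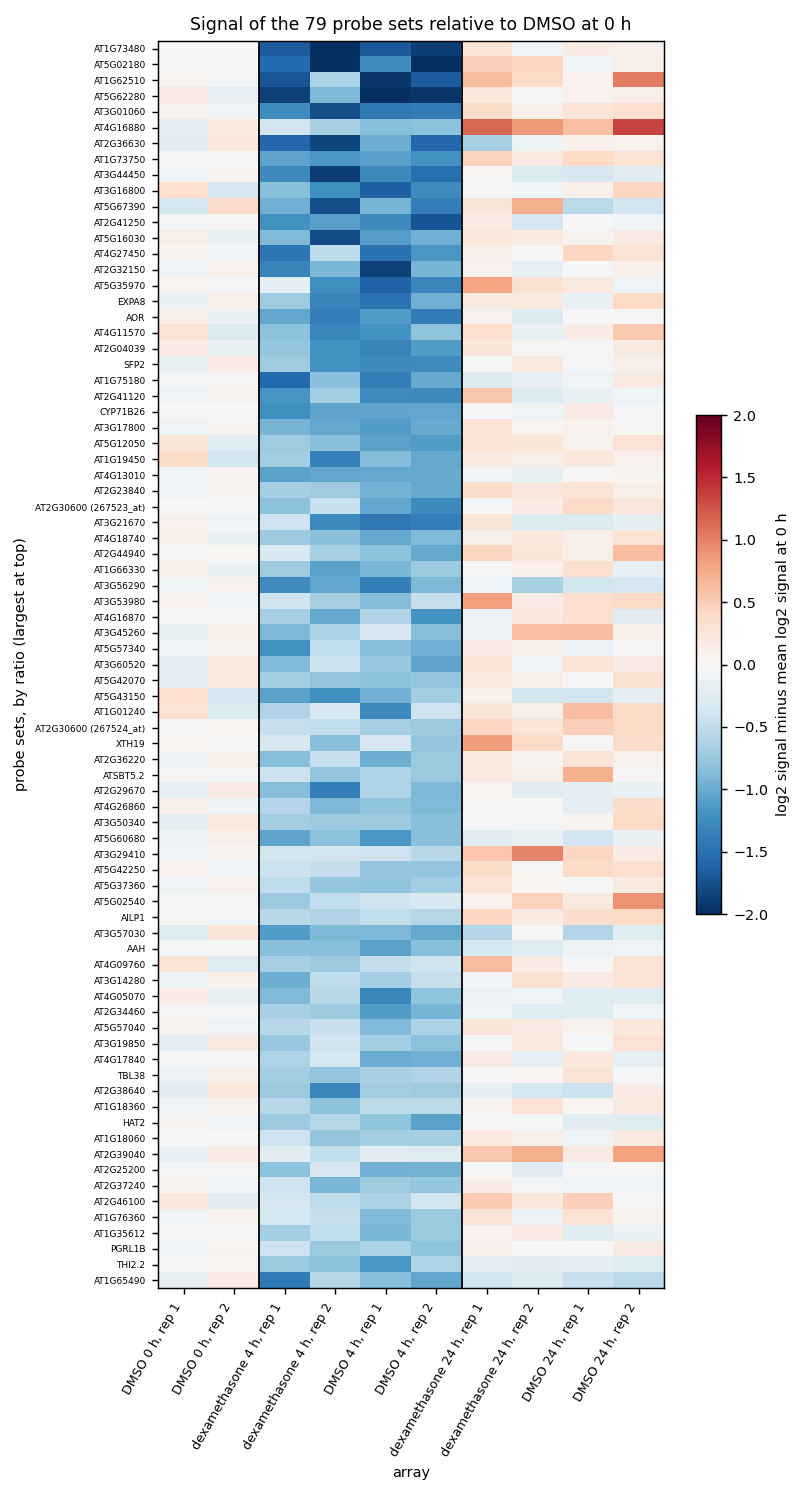
Heat map of the 79 probe sets (rows, largest ratio at the top) on the 10 arrays (columns), coloured by log2 signal minus the mean log2 signal of the 2 DMSO arrays at 0 h. The 4 columns at 4 h are blue in every row because the rule selected for this, while the columns at 24 h are mostly near white, with a median ratio of 24 h to 0 h means of 1.075.

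The deepest trough belonged to AT1G73480, which encodes an alpha/beta hydrolase. Its signals were 152.5 and 156 at 0 h, 48.7 and 33.4 with dexamethasone and 48.3 and 42.0 with DMSO at 4 h, and 183 and 147.5 with dexamethasone and 171 and 165 with DMSO at 24 h. Both treatments were low at 4 h and overlapped there, and its means were 43.1 at 4 h against 162.5 on the other arrays, a ratio of 3.77. AT5G62280, the gene taken as the marker of the set, codes for a protein of unknown function. Its signals were 153 and 121 at 0 h, 37.5 and 73.0 with dexamethasone and 33.7 and 35.3 with DMSO at 4 h, and 158 and 133 with dexamethasone and 145 and 149 with DMSO at 24 h. Every array at 4 h lay below every other array, as the rule requires, and replicate 2 of dexamethasone was the highest of the 4. AT3G01060, also of no role stated here, had 254 and 230.2 at 0 h, 101 and 70.3 with dexamethasone and 89.9 and 91.5 with DMSO at 4 h, and 311.5 and 263 with dexamethasone and 289 and 301 with DMSO at 24 h. Its 4 arrays at 4 h lay well apart from the rest, with means of 88.15 at 4 h against 275 on the other arrays.

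Among the enzymes there were 2 further alpha/beta hydrolases, AT1G73750 and AT1G18360. Signals of AT1G73750 were 91.0 and 93.5 at 0 h, 44.5 and 41.0 with dexamethasone and 43.35 and 39.9 with DMSO at 4 h, and 126.5 and 105 with dexamethasone and 122 and 111 with DMSO at 24 h, and the treatments overlapped at both times. AT1G18360 was a shallower case, with means of 58.0 at 4 h against 95.2 on the other arrays. Proteins of the haloacid dehalogenase-like hydrolase family, which includes many phosphatases, were coded by AT2G41250, AT2G32150 and AT4G11570. AT2G41250 had 95.8 and 98.8 at 0 h, 41.8 and 45.9 with dexamethasone and 40.4 and 29.3 with DMSO at 4 h, and 109 and 77.3 with dexamethasone and 96.3 and 94.2 with DMSO at 24 h. At 4 h AT2G32150 had 61.5 and 80.9 with dexamethasone and 42.0 and 80.6 with DMSO, and no other array was below 136. AT4G11570 had means of 120 at 4 h against 273 on the other arrays. All 3 had ratios between 2.28 and 2.42.

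CYP71B26, a cytochrome P450 enzyme, was a strong member with closely matching arrays. Its signals were 454 and 450.5 at 0 h, 192.5 and 219 with dexamethasone and 217 and 221 with DMSO at 4 h, and 447 and 428 with dexamethasone and 506 and 447 with DMSO at 24 h. The 4 arrays at 4 h spanned 192.5 to 221, and none of the others was below 428. AAH, the allantoate amidohydrolase that releases nitrogen during purine breakdown, had means of 55.5 at 4 h against 94.9 on the other arrays. The choline kinase gene AT4G09760 had 69.4 at 4 h against 118 on the other arrays. The terpene synthase gene AT3G29410 had 37.45 at 4 h against 66.0 on the other arrays. Their troughs were shallow beside that of CYP71B26, with ratios of 1.71 for AAH, 1.70 for AT4G09760 and 1.76 for AT3G29410.

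The proteins of the wall and the outside of the cell included an expansin, a xyloglucan enzyme and small lipid transfer-like proteins. EXPA8, an expansin that loosens the cell wall, had signals of 116 and 141 at 0 h, 78.6 and 51.1 with dexamethasone and 46.2 and 66.0 with DMSO at 4 h, and 146 and 145 with dexamethasone and 116 and 169.5 with DMSO at 24 h. XTH19, which cuts and rejoins the xyloglucan chains of the wall, had 172.5 and 164.5 at 0 h, 135 and 94.4 with dexamethasone and 133 and 98.9 with DMSO at 4 h, and 300 and 221 with dexamethasone and 172 and 214 with DMSO at 24 h. Both were low on every array at 4 h, as the rule requires, and the values of both treatments at 4 h overlapped. AT1G62510, of the lipid transfer and seed storage protein superfamily, had 267 and 250.4 at 0 h, 79.1 and 167 with dexamethasone and 67.2 and 82.0 with DMSO at 4 h, and 399 and 342 with dexamethasone and 274 and 529 with DMSO at 24 h. Its replicates disagreed more than those of most members: at 4 h with dexamethasone replicate 2 was 2.11 times replicate 1. AT3G53980, a second protein of that kind, had means of 113 at 4 h against 209 on the other arrays. TBL38 of the trichome birefringence-like family had 38.7 at 4 h against 63.9 on the other arrays, the subtilisin-like protease ATSBT5.2 had 37.5 at 4 h against 66.8 on the other arrays, and the secreted peroxidase AT2G39040 had 25.5 at 4 h against 41.3 on the other arrays.

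**Figure D2:**
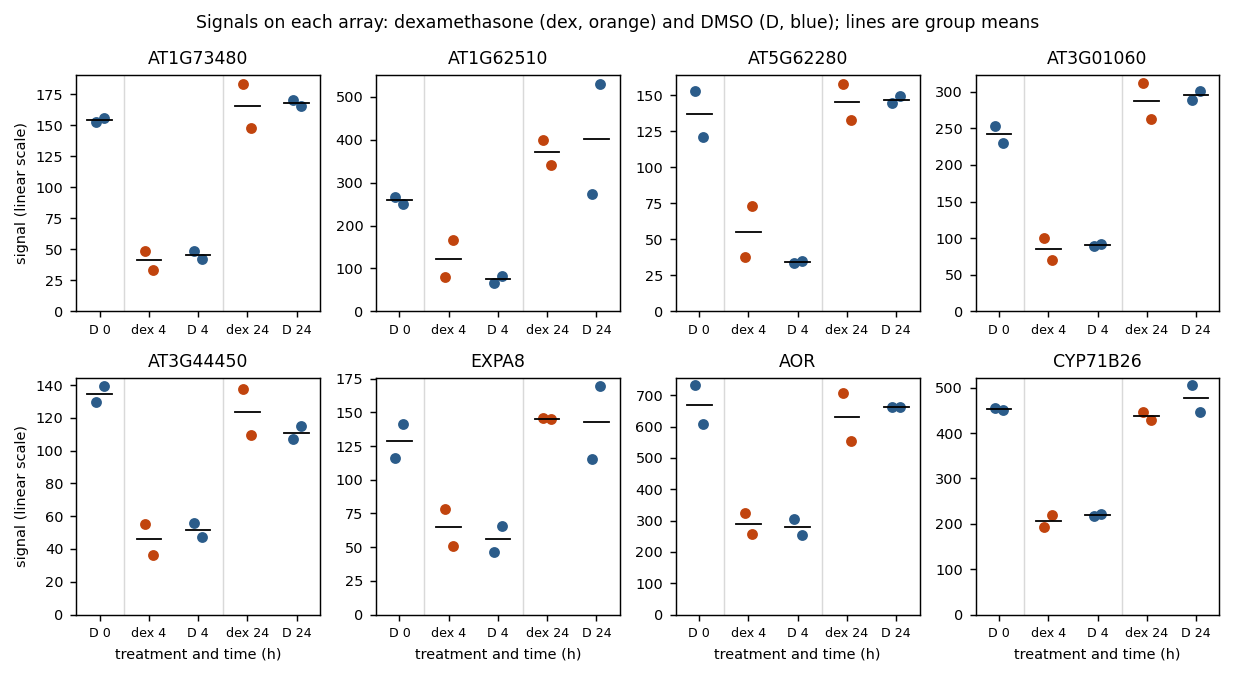
Signals on a linear scale for 8 members, with treatment and time on the x axis (D, DMSO, blue; dex, dexamethasone, orange); each point is 1 array and each line the mean of 2. In all 8 the 4 points at 4 h lie below the other 6, as the rule requires. As a ratio, the 2 dexamethasone arrays at 4 h differ most in AT1G62510 (2.11-fold) and AT5G62280 (1.95-fold).

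Membrane transport was the role given to 5 of the members. SFP2, a sugar transporter-like protein, had signals of 54.5 and 67.0 at 0 h, 36.9 and 26.0 with dexamethasone and 25.1 and 25.3 with DMSO at 4 h, and 61.5 and 69.0 with dexamethasone and 58.5 and 64.55 with DMSO at 24 h. AT1G19450, of the same transporter superfamily, had 650.1 and 392 at 0 h, 310.2 and 198 with dexamethasone and 276 and 247 with DMSO at 4 h, and 569 and 551 with dexamethasone and 583 and 537 with DMSO at 24 h. The highest array at 4 h lay below the lowest of the others, as the rule requires of every member. AT5G02180, of the amino acid transporter family, had 38.0 and 37.5 at 0 h, 12.8 and 8.29 with dexamethasone and 16.0 and 9.11 with DMSO at 4 h, and 52.7 and 51.0 with dexamethasone and 36.1 and 40.95 with DMSO at 24 h. All 4 of its signals at 4 h lay below percentile 40 of their arrays, so the depth of its trough is uncertain. AT2G36630, of the sulfite exporter family, had means of 20.5 at 4 h against 53.7 on the other arrays. AT3G21670 is known as NPF6.4 of the nitrate and peptide transporter family. It had 160.2 and 141 at 0 h, then 113 and 62.0 with dexamethasone and 55.5 and 57.3 with DMSO at 4 h. At 24 h it had 178 and 123 with dexamethasone and 123 and 133 with DMSO. At 4 h replicate 1 of dexamethasone stood at 113 and the other 3 arrays between 55.5 and 62.

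A role in the chloroplast was given to 6 of the members. This is no full tally, since 36 probe sets were not grouped by role. AOR, the alkenal/one oxidoreductase that removes reactive carbonyls, had the highest mean of the set outside 4 h. Its signals were 732 and 608.5 at 0 h, 324 and 256 with dexamethasone and 306 and 254 with DMSO at 4 h, and 706 and 555 with dexamethasone and 663 and 661 with DMSO at 24 h. AT4G13010, a quinone oxidoreductase homologue of the chloroplast envelope, had 446.5 and 479 at 0 h, 221 and 224.5 with dexamethasone and 228 and 230.3 with DMSO at 4 h, and 447 and 415 with dexamethasone and 467 and 483 with DMSO at 24 h. The 4 arrays at 4 h agreed closely, from 221 to 230.3, whichever treatment they had. AT2G04039 codes for a subunit of the chloroplast NDH complex, which takes part in cyclic electron flow, and it had means of 103 at 4 h against 231 on the other arrays. PGRL1B, of the other route of cyclic electron flow, had 60.1 at 4 h against 96.6 on the other arrays. AT4G17840, a membrane protein that limits chlorophyll breakdown, had 119.8 and 119.7 at 0 h, 77.7 and 93.6 with dexamethasone and 59.99 and 61.25 with DMSO at 4 h, and 134 and 106 with dexamethasone and 138 and 107 with DMSO at 24 h. AT2G34460, a nucleotide-binding protein, had 284 at 4 h against 477 on the other arrays. At 4 h both dexamethasone arrays of AT4G17840 and AT2G34460 were above both DMSO arrays.

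A role in signalling or transcription was given to 7 members. AT3G44450 codes for an inhibitor of the cryptochromes, the blue-light receptors of plants. Its signals were 129 and 139 at 0 h, 55.3 and 36.4 with dexamethasone and 55.7 and 47.4 with DMSO at 4 h, and 137 and 109.6 with dexamethasone and 107 and 115 with DMSO at 24 h. At 4 h the treatments overlapped, and no array at 4 h exceeded 55.7. AT3G16800, a protein phosphatase, had means of 20.7 at 4 h against 51.2 on the other arrays, and the protein kinase AT1G76360 had 31.5 at 4 h against 50.7 on the other arrays. HAT2, a homeodomain transcription factor induced by auxin, had 125 and 117 at 0 h, 72.7 and 80.9 with dexamethasone and 69.1 and 57.6 with DMSO at 4 h, and 120 and 117 with dexamethasone and 104 and 102 with DMSO at 24 h. The ethylene response factor-type gene AT2G44940 had means of 22.55 at 4 h against 42.9 on the other arrays, and the zinc finger gene AT3G45260 had 31.4 at 4 h against 58.25 on the other arrays. AT3G19850, related to a signalling protein of phototropism, had 117 at 4 h against 196 on the other arrays.

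Some members shared a gene family or lay close together in the gene order. AILP1 and AT4G27450 belong to the aluminium-induced protein family. AILP1 had 547 and 525.5 at 0 h, 367 and 355 with dexamethasone and 379 and 362 with DMSO at 4 h, and 711 and 606 with dexamethasone and 682 and 696 with DMSO at 24 h. AT4G27450 had 134 and 121.5 at 0 h, 46.8 and 88.6 with dexamethasone and 45.45 and 56.6 with DMSO at 4 h, and 136 and 127 with dexamethasone and 169 and 153 with DMSO at 24 h, and its dexamethasone arrays at 4 h differed 1.89-fold. AT4G16880, a leucine-rich repeat gene, and AT4G16870, a pseudogene in RefSeq, lie 2 places apart in the RefSeq gene order, the closest pair of the set. Signals of AT4G16880 were 50.2 and 64.6 at 0 h, 43.6 and 36.3 with dexamethasone and 31.5 and 32.3 with DMSO at 4 h, and 127 and 103 with dexamethasone and 86.65 and 146 with DMSO at 24 h. Its 24 h means were 2.01 times those at 0 h, the largest such ratio among the members. AT4G16870 had means of 38.3 at 4 h against 71.1 on the other arrays. AT1G35612, the other RefSeq pseudogene, had 41.9 at 4 h against 67.5 on the other arrays. Genes of such repeats can share sequence, and cross-hybridisation was not tested.

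AT2G30600, which codes for a protein with a protein-interaction (BTB) domain, was measured by 2 probe sets and met the rule with both. For the first the signals were 299 and 293 at 0 h, 168 and 216 with dexamethasone and 145 and 123 with DMSO at 4 h, and 292 and 328 with dexamethasone and 387 and 347 with DMSO at 24 h. For the second the means were 148 at 4 h against 267 on the other arrays, and the ratios were 1.99 for the first and 1.80 for the second. The 2 ratios were alike, but each probe set is listed because it met the rule, so this is no independent check. Other members with a ratio of at least 2 that were not grouped by role included AT5G16030, AT5G35970, AT1G75180, AT3G17800 and AT5G12050. AT5G16030 had means of 167 at 4 h against 398 on the other arrays, and AT1G75180 65.4 at 4 h against 142. The helicase-like gene AT5G35970 had means of 56.3 at 4 h against 129.8 on the other arrays, but its separation was narrow. Its highest array at 4 h had 97.6 and the lowest of the others 103.8, and its dexamethasone arrays at 4 h disagreed, with 97.6 and 47.0. AT3G17800 had 124 at 4 h against 263 on the other arrays and AT5G12050 125 at 4 h against 266 on the other arrays. AT5G67390 was weaker, with 36.3 and 59.7 at 0 h, 24.0 and 13.7 with dexamethasone and 24.5 and 17.8 with DMSO at 4 h, and 55.1 and 76.9 with dexamethasone and 31.9 and 35.55 with DMSO at 24 h. AT2G41120 had means of 26.2 at 4 h against 56.4 on the other arrays.

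Close to the threshold, members and non-members looked alike. The 3 members with the lowest ratios were PGRL1B at 1.607, the thionin THI2.2 at 1.603 and AT1G65490, which lay at the threshold to 3 digits. Just outside stood AT3G13480, AT3G14595 and AT5G02280, with ratios of 1.594 for AT3G13480, 1.591 for AT3G14595 and 1.590 for AT5G02280. AT1G65490 had 120.3 and 148 at 0 h, 50.3 and 90.3 with dexamethasone and 74.8 and 64.9 with DMSO at 4 h, and 104 and 111 with dexamethasone and 97.8 and 92.3 with DMSO at 24 h. AT5G02280 had 196 and 187 at 0 h, 104 and 107 with dexamethasone and 111 and 109 with DMSO at 4 h, and 164 and 179 with dexamethasone and 143 and 159 with DMSO at 24 h. The set thus has no sharp edge: 333 single-gene probe sets met the criteria on separation and level. The same 3 numeric criteria were met by 117 probe sets with no gene in the annotation and by 0 with several genes, so the 79 are part of 196. Turned round, the rule selected 70 single-gene probe sets that were higher at 4 h.

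The rule set no difference between dexamethasone and DMSO, although it used the same arrays and so bounds how far they can part. No member passed at 4 h: limma gave 0 of 79 at an adjusted p below 0.05, where 0.00686% of the 14575 probe sets tested were called higher and 0% lower. The smallest adjusted p among members was 0.651. At an unadjusted p below 0.05 there were 6 members higher, or 7.59%, against 3.74% of all probe sets tested, and 0 lower, against 3.27%. The median log2 change, dexamethasone minus DMSO, was 0.09 over the members and -0.01 over all probe sets tested. It was above 0 in 52 members, or 65.8%, where 47.8% of all probe sets were above 0. For 25 members both dexamethasone arrays lay above both DMSO arrays, 31.6% against 16.5% of all probe sets, and for 7 both lay below, 8.86% against 18.4%. The 95% interval of a single member's change reached a median of 0.40 log2 units to either side.

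The 6 members with an unadjusted p below 0.05 were AT2G30600 through its first probe set, AT4G17840, AT2G34460, AT5G35970, AT5G62280 and AT3G21670. AT2G30600 had 168 and 216 with dexamethasone against 145 and 123 with DMSO, a log2 change of 0.50 (95% interval 0.19 to 0.82, adjusted p = 0.651). For AT4G17840 the change was 0.46 (95% interval 0.10 to 0.83). For AT2G34460, with 322 and 309.5 against 236 and 269, it was 0.32 (95% interval 0.06 to 0.58). For AT3G21670 the change was 0.54 (95% interval 0.01 to 1.06), with replicate 1 the high array. For AT5G35970 the signals at 4 h were 97.6 and 47.0 with dexamethasone against 35.85 and 44.8 with DMSO, a log2 change of 0.70 (95% interval 0.10 to 1.30), and replicate 1 was again the high array. For AT5G62280 replicate 2 was the high one, with 37.5 and 73.0 against 33.7 and 35.3 and a log2 change of 0.55 (95% interval 0.03 to 1.07). That replicate is an array with high defence transcripts. In all 6 probe sets both dexamethasone arrays at 4 h lay above both DMSO arrays, but the same arrays gave the p that picked them. Without replicate 1 of dexamethasone at 4 h, AT5G62280 was called at a log2 change of 0.99 (limma adjusted p = 0.0439), 1 of 79 members where 80 of all 14531 probe sets were called. In that fit dexamethasone at 4 h is the single array with high defence transcripts, which is assumed to vary like the arrays of the other groups. No other setting called a member. The second probe set of AT2G30600 had 0.21 at 4 h. Genes with deep troughs went either way, with -0.14 for AT1G73480, 0.61 for AT1G62510 and -0.10 for AT3G01060, none of which passed the test. By role, the median change was 0.26 over the 7 signalling genes, 0.22 over the 3 of the resistance cluster and mobile elements, 0.18 over the 6 chloroplast genes, 0.14 over the 2 aluminium-induced genes, 0.08 over the 8 of the wall and outside of the cell, 0.07 over the 12 enzymes and -0.07 over the 5 transporters. The 36 probe sets not grouped had a median of 0.07, with 24 above 0. These role groups were formed after the values were seen and have no test.

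Described against 0 h, the median log2 change of the members at 4 h was -0.72 with dexamethasone and -0.88 with DMSO. The fall exceeded 1 log2 unit in 21 members with dexamethasone and in 30 with DMSO. From 4 h to 24 h the median change was 0.86 with dexamethasone and 0.96 with DMSO. The first pair of comparisons shares the 0 h arrays, and all of them use arrays that chose the members. The 70 probe sets that were higher at 4 h had a median log2 change with dexamethasone at 4 h of 0.11, with 45 above 0, so they too had more changes above 0 than below.

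At 24 h no member differed between dexamethasone and DMSO by limma (0 of 79 at an adjusted p below 0.05, smallest adjusted p = 0.999), where 0.00686% of all probe sets tested were called higher and 0% lower. At an unadjusted p below 0.05, 2 members were higher, AT5G67390 and AT3G29410, and 0 were lower. That is 2.53% higher, against 1.88% of all probe sets, and 0% lower, against 1.21%. AT5G67390 had 55.1 and 76.9 with dexamethasone against 31.9 and 35.55 with DMSO, a log2 change of 0.87 (95% interval 0.24 to 1.50). AT3G29410 had 73.5 and 99.2 against 67.0 and 55.9, a log2 change of 0.45 (95% interval 0.07 to 0.84). For both genes the groups did not overlap, but these arrays also gave the p that picked them. Both dexamethasone arrays lay above both DMSO arrays in 12 members, or 15.2% against 18% of all probe sets. They lay below in 9, or 11.4% against 14.1%. Over all members the median was -0.01 and 37 lay above 0, or 46.8% against 52.5% of all probe sets. XTH19 had 0.42 and EXPA8 0.05. AT2G36630 had the lowest value, -0.44.

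The dexamethasone effect at 24 h was also set against that at 4 h in a single contrast. The difference passed for 0 of 79 members by limma (smallest adjusted p = 0.832), and 0% of all probe sets tested passed in either direction. At an unadjusted p below 0.05 there was 1 member with a larger effect at 24 h, AT5G67390 with a difference of 1.03 log2 units. There were 2 with a smaller one, AT2G30600 through its first probe set with -0.74 and AT5G42250, an alcohol dehydrogenase-like gene, with -0.46. At this threshold 1.27% of the members had a larger effect, against 3.07% of all probe sets, and 2.53% a smaller one, against 2.42%. The median difference was -0.09 over the members and 0.02 over all, and 29 members lay above 0, or 36.7% against 53% of all probe sets.

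**Figure D3:**
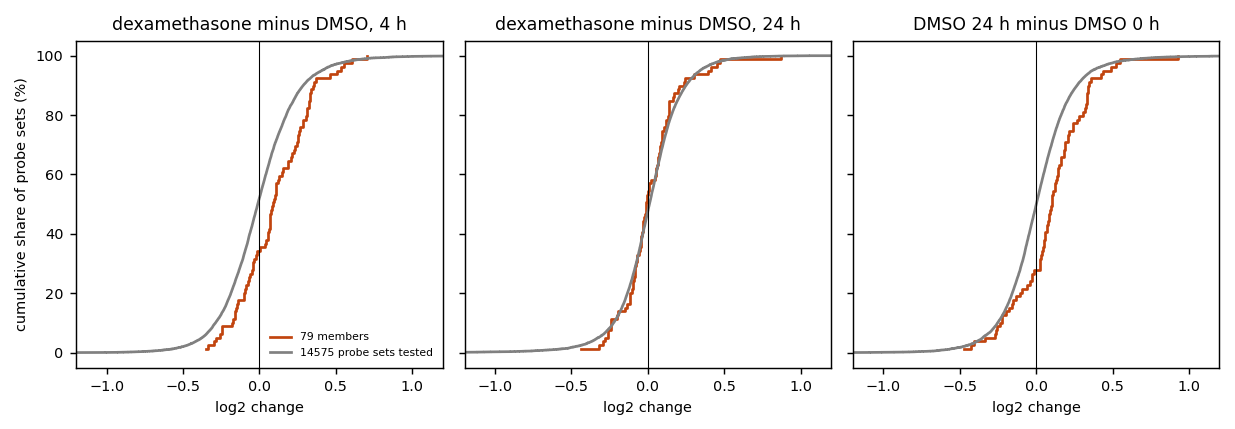
Cumulative share of probe sets (y axis, percent) by log2 change (x axis, shown from -1.2 to 1.2) in 3 comparisons. Orange is for the 79 members and grey for the 14575 probe sets tested. The rule did not use these comparisons as its contrast, but it used their arrays. The orange curve lies to the right of the grey one at 4 h (medians 0.09 and -0.01) and for DMSO at 24 h against 0 h (0.11 and 0.00), and on it at 24 h (-0.01 and 0.01).

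The return of the members after a full day was examined in the DMSO seedlings alone. Between 24 h and 0 h, 0 of 79 members passed by limma (smallest adjusted p = 0.923), and 0% of all probe sets tested passed in either direction. At an unadjusted p below 0.05, 6 members were higher at 24 h, or 7.59% against 2.07% of all probe sets, and 0 were lower, against 2.48%. The median log2 change, 24 h minus 0 h, was 0.11 over the members and 0.00 over all. It lay above 0 in 57 members, or 72.2%, where 50.2% of all probe sets did. In the 70 probe sets that were higher at 4 h the median was -0.09, with 25 above 0 and 45 below. The part of the rule in these shares was not tested. Both arrays at 24 h lay above both at 0 h in 19 members, or 24.1% against 16.1%, and below them in 15, or 19% against 16.4%. Taking both treatments together, the ratio of the mean at 24 h to that at 0 h had a median of 1.075 and ran from 0.754 in AT1G65490 to 2.01 in AT4G16880.

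The 6 higher members were AT4G16880, AT2G30600 through its second probe set, AILP1, AT5G02540, AT5G42250 and AT1G73750. AT4G16880 had 86.65 and 146 at 24 h against 50.2 and 64.6 at 0 h with DMSO, a log2 change of 0.93 (95% interval 0.43 to 1.43). AILP1 had 682 and 696 against 547 and 525.5, a log2 change of 0.36 (95% interval 0.12 to 0.60). The oxidoreductase-like gene AT5G02540 had 109 and 178 against 95.8 and 95.8, with a change of 0.52. In each of these 3 genes both arrays at 24 h were the higher ones, which is no separate support, since the genes were picked by p on these arrays. AT5G42250 had a change of 0.34 and AT1G73750 of 0.32. The lowest changes were those of AT1G65490 at -0.47, AT5G67390 at -0.43 and AT3G57030 at -0.41.

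As the rule requires, the members separated the arrays by time. The median log2 deviation of the members from their own mean was -0.42 and -0.50 on the dexamethasone arrays at 4 h and -0.59 and -0.55 on the DMSO arrays at 4 h. It was 0.29 and 0.30 at 0 h, and at 24 h it was 0.43 and 0.34 with dexamethasone and 0.36 and 0.41 with DMSO. The side on which each array fell was fixed by the choice of members. Of the 4 arrays at 4 h, replicate 2 of dexamethasone was the lowest in 23 members and the highest in 21. It was thus an extreme in 55.7% of the members, against 61.9% of all probe sets tested. Replicate 1 of dexamethasone was an extreme in 58.2%, against 43.0%, and it was the highest of the 4 in 37 members and the lowest in 9. Replicate 1 of DMSO was the lowest in 31 and the highest in 11, and replicate 2 of DMSO the lowest in 16 and the highest in 10. The part of single arrays in the dexamethasone changes at 4 h was not tested. The 2 dexamethasone arrays at 4 h differed by over 1.5-fold in 14 members, and the 2 DMSO arrays in 5. The same shares over all probe sets were not computed, so these counts are not a trait of the members. Over all probe sets tested, the correlation between replicates at 4 h was 0.971 with dexamethasone and 0.985 with DMSO. Without both of the arrays with high defence transcripts the rule selected 98 probe sets, with 71 of the 79 among them. Leaving out arrays cannot undo the separation of a member, only its ratio or its mean, so this count is no check on those arrays.

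**Figure D4:**
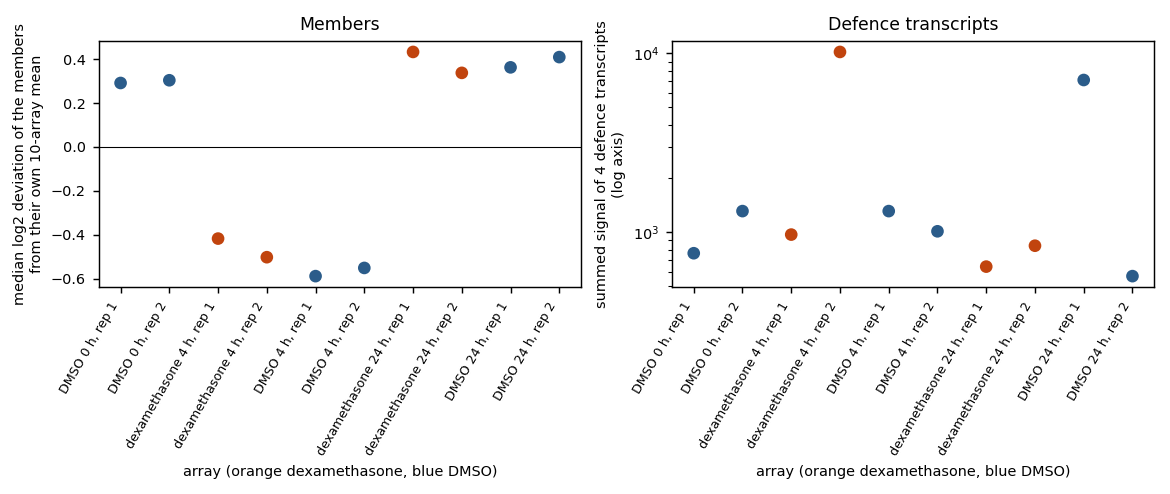
Left, median log2 deviation of the 79 members from their own mean over 10 arrays (y axis) for each array (x axis); right, summed signal of 4 defence transcripts on a log axis for the same arrays, each point being 1 array (orange, dexamethasone; blue, DMSO). The 4 arrays at 4 h lie between -0.59 and -0.42 on the left and the others between 0.29 and 0.43, a separation that the rule imposed; on the right 2 arrays stand at 10200 and 7107 and the other 8 between 569 and 1314.

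Few genes of known daily or growth pathways could be set beside the members. Of 222 loci on 16 lists, 42 had a single-gene probe set in the annotation, called measured here. Of these 2 were members, EXPA8 and XTH19. The 8730 probe sets without a gene name may include other listed genes, and 117 unnamed ones met the numeric criteria. The 4 tests called none of the tested genes on any list. Of the 26 clock genes, 4 were measured in this sense and 0 of these were members. COR27, a regulator of the clock, had 4.51 and 4.89 at 0 h, 120.3 and 136 with dexamethasone and 109 and 112 with DMSO at 4 h, and 11.7 and 7.58 with dexamethasone and 8.59 and 7.77 with DMSO at 24 h, so it was high at 4 h in both treatments. AT4G33980, its close relative, had 13.05 and 12.65 at 0 h, 68.1 and 65.2 with dexamethasone and 67.1 and 69.0 with DMSO at 4 h, and 19.25 and 15.1 with dexamethasone and 15.55 and 14.1 with DMSO at 24 h. Both ran opposite to the members. GI, a clock component, had 178 and 179 at 0 h, 136 and 95.8 with dexamethasone and 158 and 147 with DMSO at 4 h, and 189.5 and 203 with dexamethasone and 201 and 186.5 with DMSO at 24 h; its arrays at 4 h all lay below the others, as in the members, but its ratio was 1.41. AT5G52660 of the same list had a ratio of 0.920.

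Of the 22 wall-loosening genes 8 were measured, and their ratios of the other arrays to 4 h ran from 0.627 to 2.30 with a median of 1.32. EXPA8 and XTH19 stood at the upper end, while the expansins EXPA15 and EXPA4 had ratios of 0.627 and 0.663. XTH18, a close relative of XTH19, had a ratio of 1.39, and XTH16 had 1.30 with its arrays at 4 h below all others. The auxin-responsive genes IAA29 and AT2G18010 were also lower on all 4 arrays at 4 h, but their signals were too weak for the rule and for the tests. Of 19 starch genes 4 were measured, with ratios between 0.473 and 1.29. Both root markers had ratios of 1.05 and 1.27, and the 2 tested stomatal markers 1.03 and 1.22, all below the 1.6 of the rule. LHCB4.2 reached a ratio of 1.68 but did not separate by time: at 4 h it had 1634 and 1273 with dexamethasone and 837 and 888 with DMSO, against 1538 and 1556 at 0 h.

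The members were spread over all 5 nuclear chromosomes, by their locus names and the RefSeq table. The counts were 15 on chromosome 1, 18 on 2, 15 on 3, 13 on 4 and 18 on 5, or between 0.435% and 0.818% of the single-gene probe sets of each chromosome. Apart from AT4G16870 and AT4G16880, the nearest pair lay 15 places apart in the gene order. All 79 probe set names carry the plain suffix of a set designed for one gene. Of the 78 genes 76 are protein coding in RefSeq and 2 are pseudogenes, and 12 have a symbol of their own there.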

How the data were processed

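RNA was measured on 10 ATH1 arrays, 2 in each of 5 groups taken from the sample titles. Each probe set has 1 linear signal intensity per array, which the authors computed with MAS5 in GCOS before they deposited it, per the submitters' processing notes; no software version was used here. The trimmed mean was equal on all arrays, so each had been scaled before deposit, which hides any change in total RNA. No detection calls were used, and 2 arrays a group limit the precision. Genes came from the platform annotation, with names updated through RefSeq of assembly TAIR10.1 for 13436 of 13513 single-gene probe sets; 503 probe sets had several genes and 8730 had no name here. After 64 control probe sets were removed, a probe set was kept if 2 or more arrays had it above their own percentile 40 (14575, all members included). Tests used log2(signal + 4.35), where the constant is percentile 20 of all values, and limma 3.58.1 in R 4.3.3 (lmFit, eBayes with a trend, 1 mean per group, 5 residual degrees of freedom), two-sided, with Benjamini-Hochberg adjustment over all probe sets kept and a threshold of 0.05. The constant shrinks the changes of weak transcripts. The tests covered dexamethasone against DMSO at 4 h and at 24 h, the difference between these effects, and DMSO at 24 h against 0 h. The fit was tested on simulated data. The members and lists were chosen with earlier results of these data known. Named genes are AT5G62280, the 25 probe sets with the largest ratio, those on a list, those at the threshold and the measured clock genes; the others were grouped by known role after their values were seen. The annotation names no families, so that part of the rule named none. Families and functions given here for genes named only by locus come from general knowledge, not from the annotation. Tables and figures used Python 3.11.15, pandas 2.3.3 and matplotlib 3.10.9. The alternatives were no filter, a constant of 16, quantile normalization, no trend, a replicate block, leaving out arrays, and other limits of the rule. No sequences are printed, because none were used here.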

Additional observations from a re-analysis of the deposited data

How the results depend on the processing

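In 4 tests under 16 alternatives each, 0 members passed, with the 1 exception of AT5G62280 at 4 h without replicate 1 of dexamethasone at 4 h (log2 change 0.99, limma adjusted p = 0.0439), a setting that leaves 1 array in that group, takes its spread from the other groups with 4 residual degrees of freedom, and called 80 of all probe sets at 4 h against 1 with all arrays, and 14 against 0 for the difference between times. Over the settings that leave out 1 array, the number of members that passed at 4 h was thus 0 to 1, and it was 0 in the other tests. The median log2 change of the members ran from 0.06 to 0.13 at 4 h, from -0.0703 to 0.0638 at 24 h, from 0.0533 to 0.106 for DMSO at 24 h against 0 h, and from -0.146 to -0.0560 for the difference of the effects. Without both arrays with high defence transcripts the median of the difference was -0.148, and the other medians moved by less than the spread between replicate arrays. The sign of the median at 24 h is therefore not settled. The rule selected 166 probe sets at a ratio of at least 1.4 and 28 at a ratio of at least 2. Leaving out 1 array gave 75 to 106 probe sets, with 70 to 76 of the 79 among them. A member cannot lose its separation when an array is left out, so only the ratio or the mean could remove it. Omitting replicate 2 of dexamethasone at 4 h gave the 106, and 98 came without both arrays with high defence transcripts. Quantile normalization kept 70, a mean above 80 kept 59 and a mean above 20 gave 86. The deviations of same-numbered replicates had correlations between -0.42 and 0.18 over pairs of groups. The lowest was between DMSO at 24 h and dexamethasone at 4 h, the groups that hold the arrays with high defence transcripts. With 2 arrays a group this cannot decide whether same-numbered replicates were handled together. With the replicate block 0 members passed in each test, as without it. The count over all probe sets was then 1 at 4 h, 1 at 24 h and 0 in the other tests. Other changes of the count over all probe sets were 2 at 4 h without replicate 2 of dexamethasone at 4 h, 3 at 4 h without both arrays with high defence transcripts, 8 at 24 h without replicate 2 of DMSO at 24 h, and 1 and 4 for DMSO at 24 h against 0 h without replicate 2 of DMSO at 0 h and at 24 h. The causes were not tested.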
